A study of Mus musculus with 12 samples.

Results

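The genes described here mark skeletal muscle that is being rebuilt or has lost its nerve supply, and they were read in whole skin from the back of WT and Thy-1–KO mice given PBS or bleomycin. The set held 10 genes of the 55453 listed, picked by symbol, and comprised the developmental sarcomere genes Myh3, Myh8 and Actc1, the fetal acetylcholine receptor genes Chrng and Chrna1, the fusion gene Mymk, the myogenic regulators Myod1, Myog and Myf5, and the satellite cell gene Pax7. All 10 genes were found and tested. Acta1, the main skeletal muscle actin of adult fibers, served as the measure of muscle amount. The rise of Myh3 in bleomycin-treated KO skin was already known when the set was drawn up, so values for KO BLM against KO PBS are given as a description, with no p for these genes, and nothing is read from the count past a threshold.

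RNA-Seq counts were available for 12 mice in 4 groups of 3. WT PBS comprised mice 159, 160 and 161, WT BLM mice 145, 146 and 147, KO PBS mice 136, 137 and 139, and KO BLM mice 141, 143 and 144. The labels give the strain of all 12 as C57/BL6, while the methods name C57BL/6J for WT and a C57BL/6 background for KO mice. The KO animals lacked Thy-1 in every cell rather than in a chosen cell type, and the methods describe KO females aged 8 to 12 weeks with littermates as controls. Bleomycin (BLM), a DNA-breaking agent that causes fibrosis when injected under the skin, was given at 10 mg/kg/d at 2 spots on the back, and control mice received PBS. Treatment lasted 21 days according to the labels, and up to 14 days of injection according to the methods. The paper states that the skin for RNA-Seq was taken at day 21. The libraries held between 26473700 and 38890450 counts (median, 31494965). Thy1 itself was counted in every mouse, with 3075, 3509 and 5872 reads in WT PBS, 5899, 10712 and 12685 in WT BLM, 1373, 3390 and 2599 in KO PBS and 2766, 4129 and 2727 in KO BLM. Thy1 was 1.69 lower on the log2 scale in KO BLM than in WT BLM (edgeR adjusted p = 0.112) and 0.75 lower in KO PBS than in WT PBS (edgeR adjusted p = 0.224), and the genotype rests on the labels, since counts per gene cannot place the KO reads within Thy1. Levels are given as CPM, the counts of a gene scaled to a library total adjusted by TMM, and are means or single mice as stated.

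Mouse skin carries a thin sheet of striated muscle, the panniculus carnosus, below the dermis and fat, so whole skin yields muscle RNA. When fibers are damaged, Pax7-positive satellite cells leave rest, switch on Myf5 and Myod1 and then Myog, and fuse through the membrane protein myomaker (Mymk) into new fibers that build their first sarcomeres from embryonic and neonatal myosins and from cardiac actin. The acetylcholine receptor of fetal fibers contains a γ subunit (Chrng) that an ε subunit (Chrne) replaces once the nerve is established, and fibers that lose their nerve make the γ and α subunits (Chrng and Chrna1) again along their length.

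All 10 genes were low in PBS-treated skin of either genotype and were higher in every bleomycin-treated mouse than in every PBS-treated mouse of the same genotype. In WT mice, the rise in bleomycin-treated skin ran from a log2 fold change of 4.33 for Myod1 to 7.16 for Myh3, against 2.57 for Acta1. In KO mice the differences ran from 1.67 for Myod1 to 6.99 for Myh3, against −0.02 for Acta1.

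**Figure D1:**
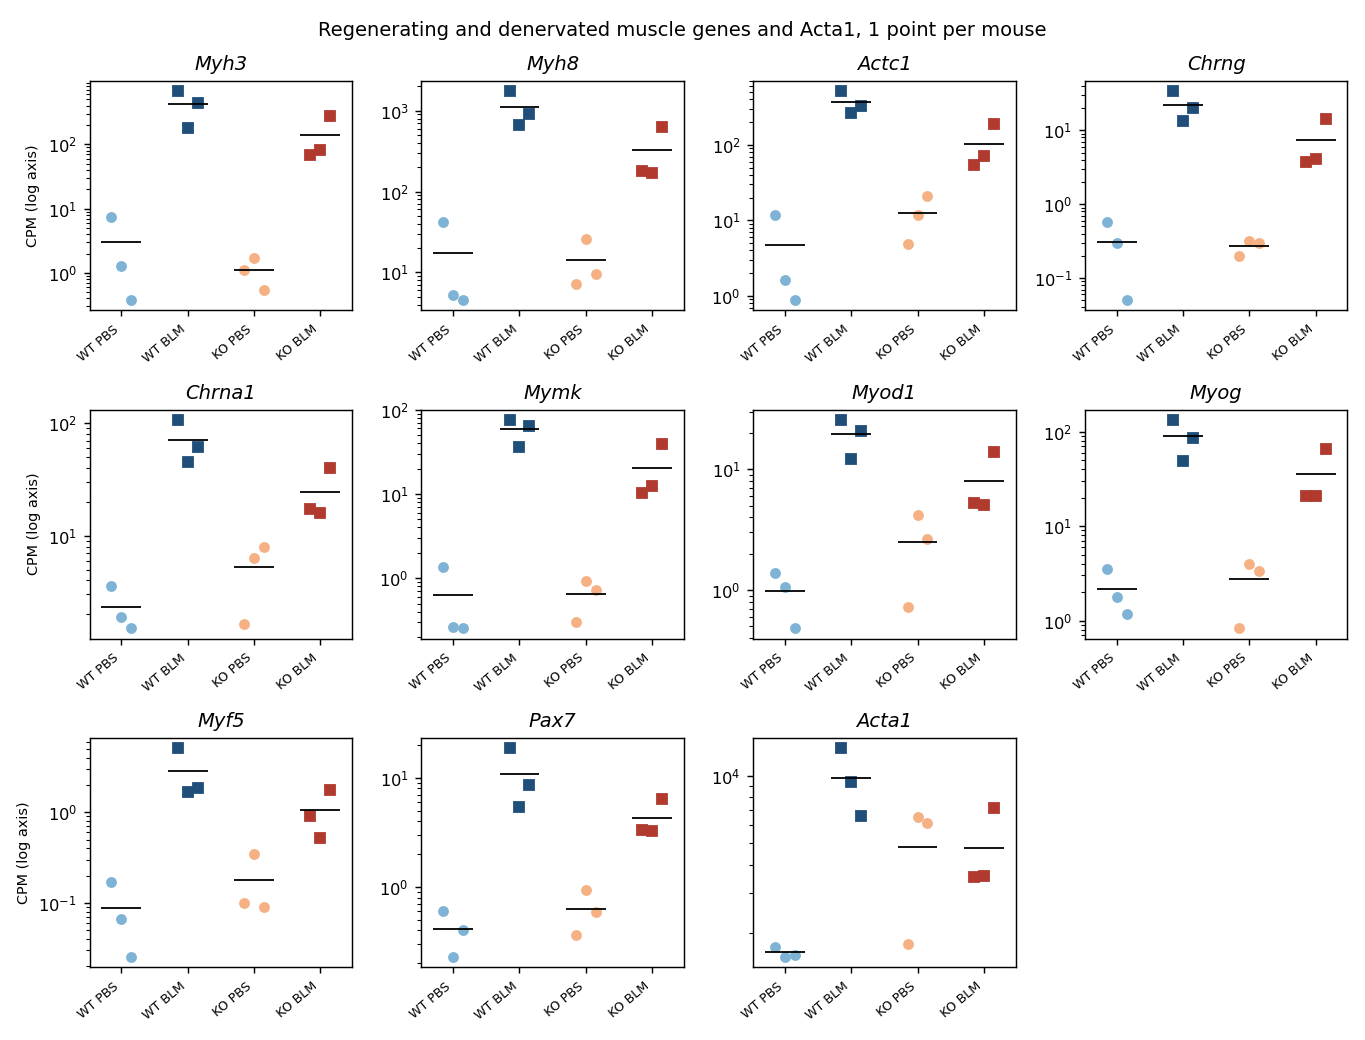
CPM of the 10 genes and of Acta1 in each mouse (log axes; the scale differs between panels), with circles for PBS, squares for bleomycin and a bar at each group mean of 3 mice. Squares lie above circles within each genotype for all 10 genes, whereas 2 KO PBS mice have Acta1 at 6548 and 6174 CPM, within the range of the bleomycin-treated mice.

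Muscle amount was examined first. Acta1 stood at 1738, 1567 and 1602 CPM in the WT PBS mice and at 13202, 9370.1 and 6598 CPM in the WT BLM mice. It was 1779, 6548 and 6174 CPM in the KO PBS mice and 3557, 3582 and 7189.7 CPM in the KO BLM mice. The WT groups were therefore separated, whereas KO PBS mice 137 and 139 carried more Acta1 than KO BLM mice 141 and 143. Acta1 rose in WT BLM by a log2 fold change of 2.57 ± 0.51 (SE; n = 3 per group; edgeR quasi-likelihood test, adjusted p = 0.00797), and it differed by −0.02 ± 0.48 between KO BLM and KO PBS. A higher level in whole skin can reflect more muscle cells in the sample or more RNA per cell, and these cannot be told apart in bulk tissue.

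In bleomycin-treated skin, Actc1 and Myh8 had the highest levels of the set per kilobase of exon, whereas with PBS the mean of Myh3 was below those of Myog, Chrna1 and Myod1 in both genotypes, within the spread between mice in WT. Myh3, which encodes the embryonic myosin heavy chain (chromosome 11, 67078300 to 67102291, + strand, GRCm38), read 7.37, 1.28 and 0.382 CPM in WT PBS and 667, 179 and 440.0 CPM in WT BLM. In KO skin it read 1.10, 1.71 and 0.536 CPM with PBS and 68.6, 81.2 and 277 CPM with bleomycin. The lowest bleomycin-treated mouse of the study thus stood above the highest PBS-treated mouse, which was WT mouse 159. Myh3 rose in WT BLM by a log2 fold change of 7.16 ± 1.18 (edgeR adjusted p = 0.00487), and the KO difference was 6.99 ± 1.18. The 250 bases ahead of its start (RefSeq, chr11:67078050-67078299, + strand, GRCm38.p6) lie outside annotated exons and are shown because Myh3 had the largest change of the set. Capitals mark E-boxes, the letters CANNTG that myogenic regulators can bind, of which this window held 1.
Myh3: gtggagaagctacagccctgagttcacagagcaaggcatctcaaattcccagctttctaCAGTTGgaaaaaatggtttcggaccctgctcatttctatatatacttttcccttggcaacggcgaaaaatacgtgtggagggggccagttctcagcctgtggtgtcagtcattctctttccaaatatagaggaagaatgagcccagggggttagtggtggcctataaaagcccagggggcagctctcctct

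Myh8, the neonatal myosin heavy chain (chromosome 11, 67277124 to 67308634, + strand), read 42.5, 5.23 and 4.59 CPM in WT PBS and 1733, 675 and 913 CPM in WT BLM. In KO skin the values were 7.08, 26.1 and 9.62 CPM with PBS and 177, 171 and 628 CPM with bleomycin. All 3 KO BLM mice were above all PBS-treated mice and below all 3 WT BLM mice. The WT log2 fold change was 5.99 ± 1.10 (edgeR adjusted p = 0.00638), and the KO difference was 4.51 ± 1.03. Of the 50-base stretches in Myh8 exons, 12.1% also occur in other genes, chiefly Myh2, Myh1 and Myh4, and 4.76% of those in Myh3 do so, so a share of their reads could belong to sister myosins.

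Actc1, the cardiac α-actin that fetal skeletal fibers use before Acta1 takes over (chromosome 2, 114047282 to 114053548, − strand), had its highest PBS values in KO skin. It read 11.8, 1.64 and 0.892 CPM in WT PBS and 510.2, 266 and 323 CPM in WT BLM. In KO skin the levels were 4.82, 11.9 and 20.8 CPM with PBS and 53.7, 70.9 and 186 CPM with bleomycin. Mouse 139 was the highest of the PBS-treated mice, and it and mouse 137 also had the high Acta1 levels. Actc1 rose in WT BLM by a log2 fold change of 6.26 ± 1.08 (edgeR adjusted p = 0.00545), and differed by 3.05 ± 0.93 in KO skin. No 50-base stretch of Actc1 is shared with another gene. Of 7 heart muscle markers, whose summed level ranged from 2.27 to 6.82 CPM over the 12 mice, Nppa, Tbx20 and Nkx2-5 had no read in any PBS-treated mouse, and 2 reached the level needed for testing, of which Tnni3, the cardiac troponin I, was called higher in WT BLM (log2 fold change, 1.16; edgeR adjusted p = 0.0339) and Nppb was not (0.17; edgeR adjusted p = 0.86).

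The receptor genes moved with the myosins. Chrng, the γ subunit (chromosome 1, 87204657 to 87212694, + strand), was close to absent in PBS-treated skin, with 17, 9 and 2 reads in WT PBS and 6, 11 and 10 reads in KO PBS. Bleomycin-treated mice had 857, 408 and 607 reads in WT and 122, 131 and 400 reads in KO skin, which corresponded to 33.6, 13.3 and 19.9 CPM and to 3.73, 4.06 and 14.1 CPM. Chrng rose in WT BLM by a log2 fold change of 6.21 ± 0.82 (edgeR adjusted p = 0.00329), and the KO difference was 4.73 ± 0.78. With PBS-treated mice alone, neither Chrng nor Myf5 would have passed the filter on low counts, so both entered the test through the groups in which they were high.

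Chrna1, the α subunit found in fetal and adult receptors alike (chromosome 2, 73563215 to 73580338, − strand), had a higher floor. It read 3.55, 1.91 and 1.5 CPM in WT PBS, 107, 45.3 and 61.2 CPM in WT BLM, 1.63, 6.37 and 7.96 CPM in KO PBS and 17.3, 16.0 and 39.9 CPM in KO BLM. Like Actc1, it was highest among PBS-treated mice in KO mice 139 and 137. The WT log2 fold change was 4.94 ± 0.68 (edgeR adjusted p = 0.00355), and the KO difference was 2.19 ± 0.60. In the 250 bases ahead of the RefSeq start, Chrng and Chrna1 each held 3 E-boxes, of which 2 read CAGCTG. At least 3 E-boxes occurred in 12.2% of 32851 mouse promoter windows of this length, at least 1 in 66.2%, and CAGCTG, itself an E-box, in 13%. Among the 8 genes of the set with a RefSeq window, 5 held an E-box and these 2 held CAGCTG, whereas windows for Mymk and Myod1 were not used here. Sequence ahead of the start of both receptor genes is printed, with E-boxes in capitals, because these 2 windows held the most E-boxes of the set. The Chrna1 window (chr2:73580339-73580588, − strand, GRCm38.p6) lies outside annotated genes, and the Chrng stretch (chr1:87205656-87205684, + strand), from 155 to 127 bases ahead of the start, falls in the first intron of an annotated Chrng transcript that starts further upstream. A match of letters is a description and does not show binding.
Chrna1: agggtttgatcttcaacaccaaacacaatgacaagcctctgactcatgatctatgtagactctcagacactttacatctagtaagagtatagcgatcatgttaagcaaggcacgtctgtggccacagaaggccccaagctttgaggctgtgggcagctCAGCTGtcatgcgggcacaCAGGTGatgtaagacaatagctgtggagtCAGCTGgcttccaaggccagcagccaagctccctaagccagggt
Chrng: CAGCTGacaatgcagtggtcagaCAGCTG

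The switch of receptor subunit was followed through Chrne, which was not in the set. This and the other ratios of gene pairs were chosen with the values known and carry no test. Chrne had 22, 21 and 13 reads in WT PBS, 87, 114 and 49 in WT BLM, 14, 66 and 121 in KO PBS and 35, 51 and 43 in KO BLM. Reads of Chrng per read of Chrne were 0.773, 0.429 and 0.154 in WT PBS and 9.85, 3.58 and 12.4 in WT BLM. In KO skin they were 0.429, 0.167 and 0.0826 with PBS and 3.49, 2.57 and 9.30 with bleomycin. The ratio was therefore above 1 in every bleomycin-treated mouse and below 1 in every PBS-treated mouse. It is a ratio of reads that was not corrected for gene length, so it serves only to compare mice. KO PBS mice 137 and 139 had more Chrne reads than KO BLM mice but 11 and 10 reads of Chrng.

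**Figure D2:**
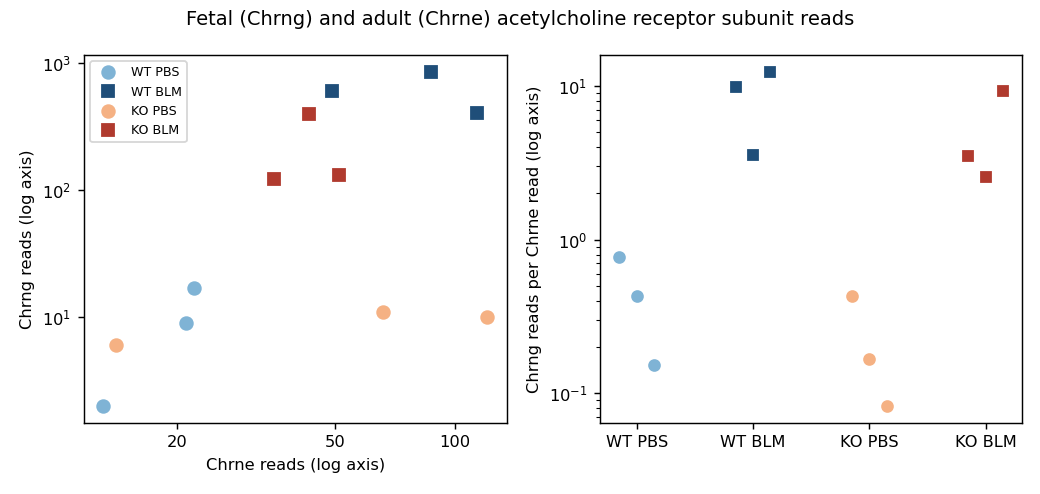
Left, reads of Chrng against reads of Chrne in each of the 12 mice (both axes logarithmic). Right, reads of Chrng per read of Chrne by group (log axis), which ranged from 0.0826 to 0.773 in the 6 PBS-treated mice and from 2.57 to 12.4 in the 6 bleomycin-treated mice.

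Mymk, which encodes the fusion protein of myoblasts (chromosome 2, 27061636 to 27072179, − strand), had 40, 8 and 10 reads in WT PBS and 9, 32 and 24 reads in KO PBS. It had 1930, 1113 and 1933 reads in WT BLM and 339, 403 and 1096 reads in KO BLM. Its levels in bleomycin-treated skin were 75.6, 36.3 and 63.4 CPM in WT and 10.4, 12.5 and 38.7 CPM in KO mice, against at most 1.35 CPM with PBS. Groups given bleomycin and PBS did not overlap. The WT log2 fold change was 6.57 ± 0.84 (edgeR adjusted p = 0.00314), and the KO difference was 4.98 ± 0.79.

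Among the regulators, Myog, the factor that starts terminal differentiation (chromosome 1, 134289989 to 134292548, + strand), was the most abundant. It read 3.48, 1.78 and 1.17 CPM in WT PBS, 133, 48.8 and 85.2 CPM in WT BLM, 0.831, 3.97 and 3.37 CPM in KO PBS and 20.9, 20.6 and 65.6 CPM in KO BLM. Its WT log2 fold change was 5.38 ± 0.77 (edgeR adjusted p = 0.00397), and the KO difference was 3.70 ± 0.71. Myod1, the determination factor that acts ahead of Myog (chromosome 7, 46376474 to 46379099, + strand), changed less. It read 1.39, 1.05 and 0.484 CPM in WT PBS and 25.6, 12.2 and 20.5 CPM in WT BLM. In KO skin it read 0.731, 4.17 and 2.62 CPM with PBS and 5.2, 5.09 and 13.9 CPM with bleomycin, so that PBS mouse 137 came close to bleomycin mice 141 and 143. The WT log2 fold change of Myod1 was 4.33 ± 0.70 (edgeR adjusted p = 0.00477), and the KO difference was 1.67 ± 0.63.

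Reads of Myog per read of Myod1 were 2.51, 1.69 and 2.42 in WT PBS and 5.2, 3.99 and 4.15 in WT BLM. They were 1.14, 0.952 and 1.28 in KO PBS and 4.01, 4.05 and 4.74 in KO BLM. The PBS and bleomycin groups did not overlap in either genotype, and the KO PBS mice were below the WT PBS mice. Myf5, the earliest of the regulators to be switched on (chromosome 10, 107482908 to 107486134, − strand), had 5, 2 and 1 reads in WT PBS, 130, 51 and 56 in WT BLM, 3, 12 and 3 in KO PBS and 30, 17 and 50 in KO BLM. At these counts the bleomycin-treated mice were still separate from the PBS-treated mice of their genotype. The WT log2 fold change of Myf5 was 5.04 ± 0.83 (edgeR adjusted p = 0.00479), and the KO difference was 2.54 ± 0.74.

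Pax7, the transcription factor that marks satellite cells (chromosome 4, 139737062 to 139833528, − strand), read 0.609, 0.230 and 0.408 CPM in WT PBS and 18.6, 5.38 and 8.5 CPM in WT BLM. In KO skin it read 0.366, 0.943 and 0.596 CPM with PBS and 3.34, 3.29 and 6.33 CPM with bleomycin. Every bleomycin-treated mouse was above every PBS-treated mouse. The WT log2 fold change was 4.69 ± 0.60 (edgeR adjusted p = 0.00314), and the KO difference was 2.75 ± 0.55.

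Levels of different genes were set side by side only after division by exon length. In WT BLM the mean level per kilobase of exon was 226 CPM/kb for Actc1, with mice from 164 to 315, and every mouse was above the 57.4 to 147 CPM/kb of Myh8. Myh8, Myh3 (29.6 to 110 CPM/kb) and Myog (32.7 to 88.9 CPM/kb) overlapped, and so did Myog and Mymk (24.0 to 50.01 CPM/kb). Chrna1 followed at 10.3 to 24.5 CPM/kb and overlapped with Myod1 at 6.57 to 13.7 CPM/kb and, narrowly, with Mymk. Chrng stood at 3.20 to 8.06 CPM/kb, and Pax7 (0.918 to 3.17 CPM/kb) and Myf5 (0.798 to 2.44 CPM/kb) overlapped at the low end. In KO BLM the order of the means was the same except that Myog and Myh3, at 23.9 and 23.5 CPM/kb, changed places within their spread. Acta1 stood far above the set, at 4296 to 8595 CPM/kb in WT BLM.

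The question of whether these genes follow bleomycin in WT skin was addressed by the comparison of WT BLM with WT PBS. Its groups share no mouse with the known KO result. It is not independent of the choice of genes, since earlier results of these data were known and the spread was estimated from all 12 mice. Of the 8 genes that would pass the filter on the PBS-treated mice alone, all 8 were called higher (edgeR quasi-likelihood test, Benjamini-Hochberg over 18311 genes; adjusted p from 0.00314 to 0.00638), where 19.8% of all genes tested were called higher, 14.1% lower and 34% in either direction. Chrng and Myf5 were called as well, but they entered the test only through the groups in which they were high. The median log2 fold change of the 8 genes was 5.69, against 0.02 for all genes. By CPM, all 3 WT BLM mice were above all 3 WT PBS mice for 10 of 10 genes, as was the case for 28.3% of all genes, with 28.7% the other way. Leaving out any single mouse of the 12 kept the calls of the 8 genes, with edgeR adjusted p between 0.000197 and 0.0328, and DESeq2 called all 8. Chrng and Myf5 were called in these settings too, with the limit given above. The calls ended when Acta1 entered the model. Acta1 did not overlap between WT PBS and WT BLM, so this fit cannot tell treatment from muscle amount in WT skin. With the log2 CPM of Acta1 as a covariate, edgeR called 0 of 18311 genes (919 at an unadjusted p under 0.05) and 0 of the 10 genes (8 at an unadjusted p under 0.05), while their log2 fold changes stayed positive, between 1.62 and 5.40, with adjusted p between 0.755 and 0.999.

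The growth state of the hair also moved with WT treatment. The summed level of 22 growing hair markers was 49611 to 71888 CPM in WT PBS and 103 to 884 CPM in WT BLM. Of the 22 markers, 12 were called lower, against 14.1% of all genes, and none was at 0 in a whole group. With the mean of these markers as a covariate, 0 of the 10 genes were called in WT skin, with log2 fold changes from 2.27 to 5.90. At an unadjusted p under 0.05 there were 10 of the 10, beside 1878 of 18311 genes. The markers did not overlap between the WT groups, so this fit cannot tell treatment from hair growth in WT skin. In KO PBS mice 136, 137 and 139 the hair markers summed to 78940, 91.4 and 326 CPM, beside 1.10, 1.71 and 0.536 CPM of Myh3. In KO BLM mice 141, 143 and 144 they summed to 37846, 3799.7 and 6299 CPM, beside 68.6, 81.2 and 277 CPM of Myh3. Macrophage markers, 9 of 10 of which were called higher in WT BLM (19.8% of all genes), summed to 433 to 1005 CPM in WT PBS and 2442 to 3552 CPM in WT BLM. In KO PBS mice 137 and 139 they summed to 2205 and 1694 CPM, near the 1653 to 2331 CPM of KO BLM. Of 8 nerve and Schwann cell markers, 2 were called higher in WT BLM, a share near the 19.8% of all genes, and their sums overlapped between the WT groups, at 254 to 294 CPM with PBS and 233 to 734 CPM with bleomycin. No macrophage or nerve marker was at 0 throughout a group, and the part of macrophages and nerve in the result was not tested.

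**Figure D3:**
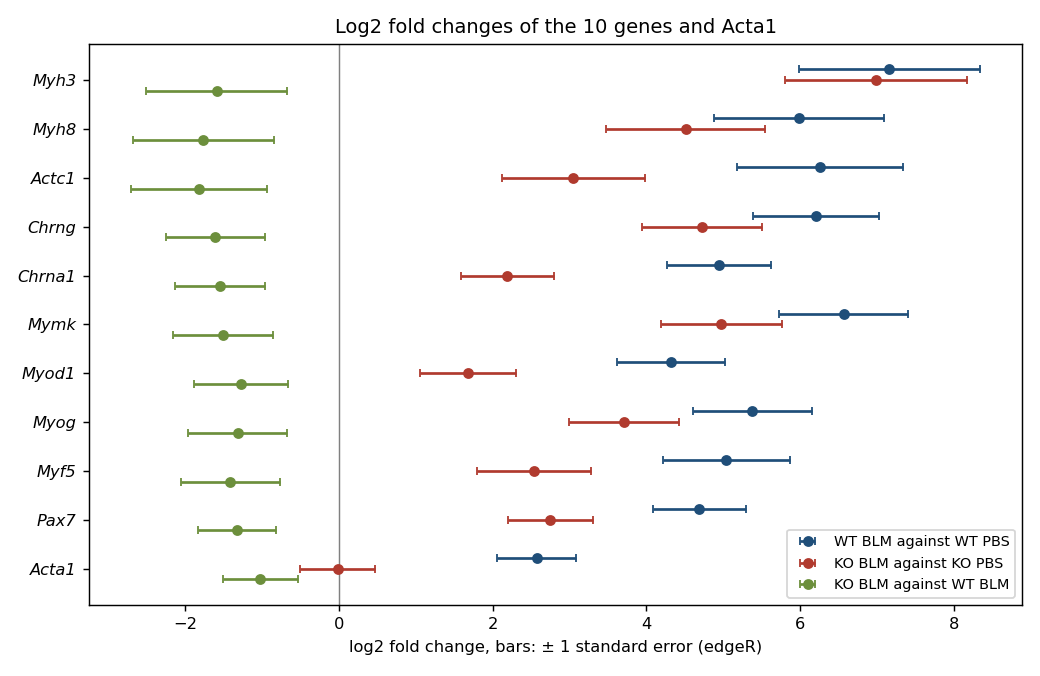
Log2 fold changes with ± 1 standard error (edgeR, 3 mice per group) of the 10 genes and Acta1 for WT BLM against WT PBS, KO BLM against KO PBS and KO BLM against WT BLM. All 10 genes lie right of Acta1 in the first and in the middle comparison and between −1.82 and −1.27 in the last, where Acta1 lies at −1.03.

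In KO skin, 3 of the 10 genes were past an adjusted p of 0.05 by edgeR, where 0.251% of all genes were called higher, 0.0546% lower and 0.306% in either direction. This count comes from the contrast through which the set was chosen, it changed with the setting and with single mice left out, and nothing is read from it. The median log2 difference of the set was 3.38, against −0.01 for all genes. By CPM the KO BLM mice were above the KO PBS mice for 10 of 10 genes, against 10.8% of all genes above and 8.44% below. The median and this separation come from the same contrast, so they too are a description and not a test.

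The ratio of each gene to Acta1 within the same mouse was then taken as a measure that does not rise with muscle amount alone. Reads of Myh3 per 1000 reads of Acta1 were 4.24, 0.819 and 0.239 in WT PBS and 50.5, 19.1 and 66.7 in WT BLM. In KO skin they were 0.617, 0.262 and 0.0869 with PBS and 19.3, 22.7 and 38.5 with bleomycin. Reads of Chrng per 1000 reads of Acta1 were 0.331, 0.189 and 0.0318 in WT PBS, 2.54, 1.42 and 3.02 in WT BLM, 0.112, 0.0480 and 0.0483 in KO PBS and 1.05, 1.13 and 1.97 in KO BLM. Both genes were separated by treatment within each genotype. The same held for all 10 genes, since the ratio in the 3 BLM mice was above that in the 3 PBS mice for 10 of 10 genes in WT (0.863% of all genes, with 89.5% below) and for 10 of 10 in KO skin (3.72% of all genes, with 2.91% below). The ratios are given as values, without a test.

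With bleomycin, the mean log2 ratio to Acta1 in WT skin exceeded that with PBS by 5.31 for Myh3, 4.52 for Actc1, 4.21 for Mymk, 4.14 for Myh8, 3.61 for Chrng, 2.84 for Myog, 2.39 for Chrna1, 1.88 for Pax7, 1.76 for Myod1 and 1.69 for Myf5. In WT skin the sarcomere genes and Mymk thus had larger differences than the regulators and Pax7. The prior count of 2 lowers the differences of genes with few reads in PBS-treated skin, so the finer order rests partly on it. By edgeR the WT log2 fold change was 5.04 for Myf5, 4.69 for Pax7 and 4.33 for Myod1, and 6.21 for Chrng beside 5.99 for Myh8. In KO mice the differences were 6.63 for Myh3, 4.61 for Mymk, 4.34 for Myh8, 4.08 for Chrng, 3.61 for Myog, 2.95 for Actc1, 2.55 for Pax7, 2.22 for Chrna1, 2.12 for Myf5 and 1.68 for Myod1. Actc1 was the gene whose place differed most. Its log2 ratios were −8.51, −9.10 and −8.21 in KO PBS and −7.19, −9.84 and −10.71 in WT PBS, which overlapped. With bleomycin they were −6.05, −5.66 and −5.27 in KO and −4.69, −5.14 and −4.35 in WT mice, without overlap. All 10 genes stayed separated in both genotypes when Ckm or the mean of 25 mature fast muscle genes replaced Acta1, and without any single mouse.

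**Figure D4:**
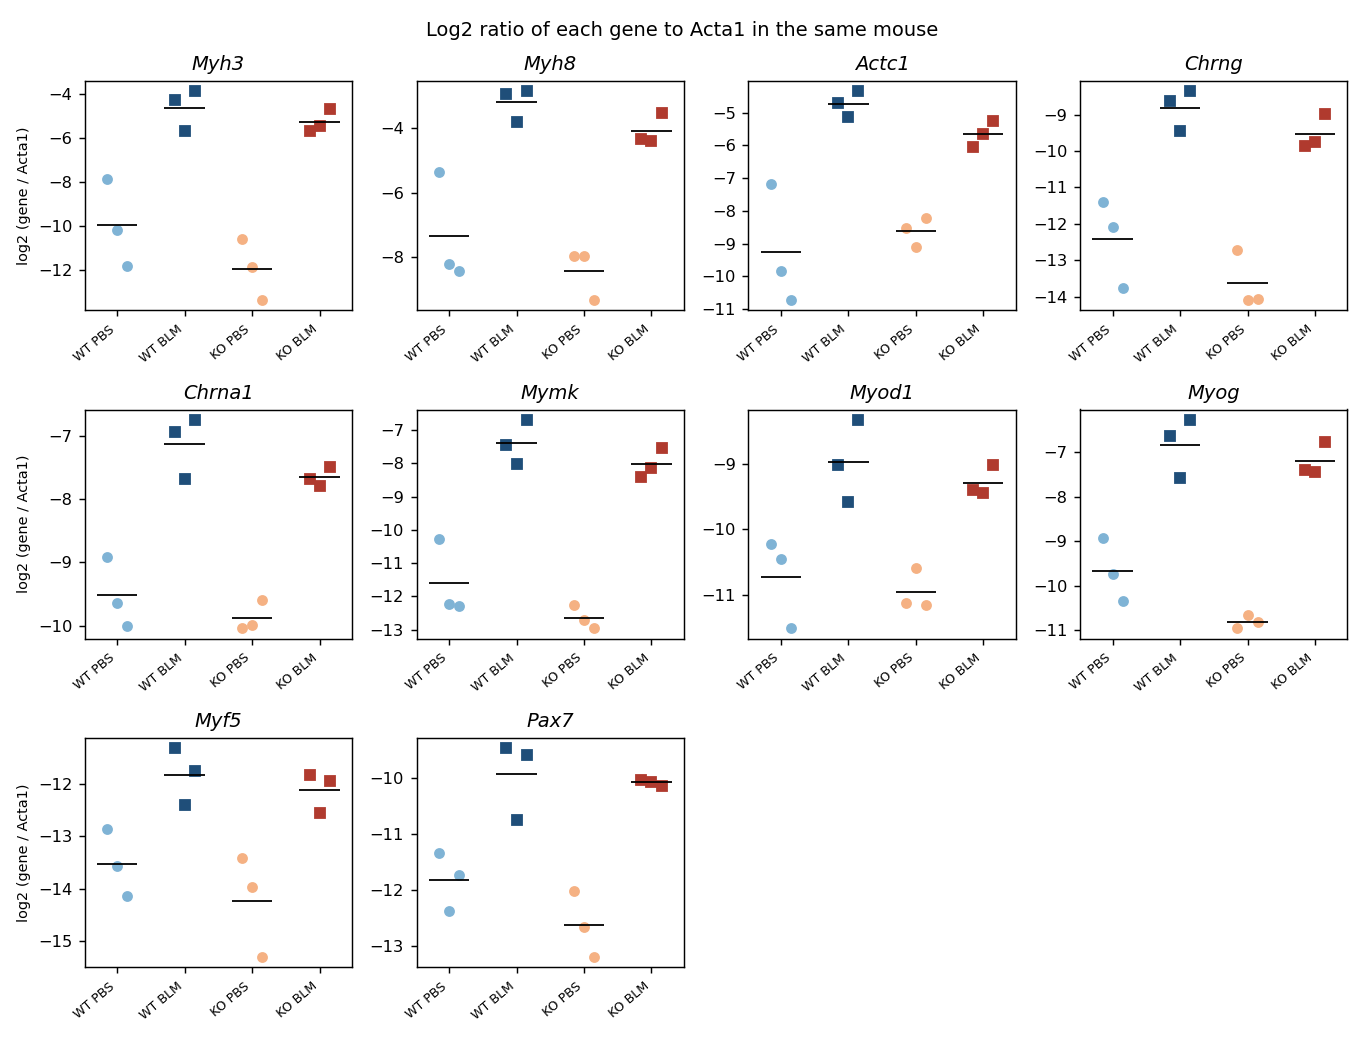
Log2 ratio of each gene to Acta1 in the same mouse (log2 CPM with a prior count of 2), with circles for PBS, squares for bleomycin and a bar at each group mean of 3 mice. In every panel the 3 squares lie above the 3 circles of the same genotype.

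Single mice were then set side by side, chosen after their values were seen. KO PBS mice 137 and 139 had Acta1 at 6548 and 6174 CPM and Myh3 at 1.71 and 0.536 CPM. KO BLM mice 141 and 143 had Acta1 at 3557 and 3582 CPM and Myh3 at 68.6 and 81.2 CPM, and KO BLM mouse 144 had the most of both in its group, at 7189.7 and 277 CPM. In WT BLM, mouse 145 likewise had the most Acta1 and the most Myh3, at 13202 and 667 CPM.

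**Figure D5:**
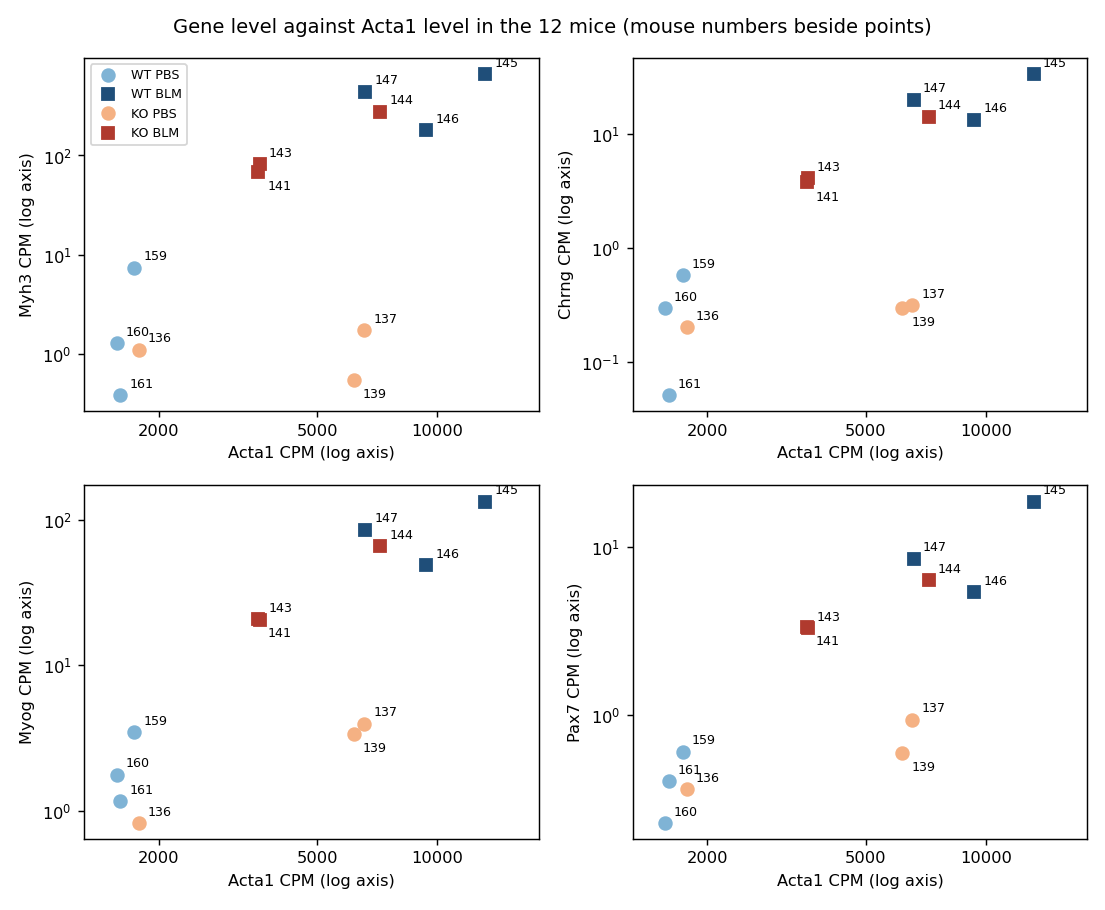
CPM of Myh3, Chrng, Myog and Pax7 against CPM of Acta1 in each of the 12 mice (both axes logarithmic; numbers are the mice). KO PBS mice 137 and 139 lie at Acta1 levels of 6548 and 6174 CPM, close to WT BLM mouse 147 at 6598 CPM, and far below it on the vertical axis.

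Genotype was then compared within each treatment. The KO mice in these comparisons are those of the known KO result. Under bleomycin, all 10 genes had lower estimates in KO than in WT skin, with log2 differences from −1.82 for Actc1 to −1.27 for Myod1. None of the 10 was called by edgeR (adjusted p from 0.267 to 0.379), where 0.0928% of all genes were called (0.0546% higher and 0.0382% lower). At an unadjusted p under 0.05 edgeR had 4 of the 10, beside 3043 of 18311 genes. DESeq2 also called 0, with 9 of the 10 at an unadjusted p under 0.05, beside 3702 genes. Myh3 differed by −1.59 ± 0.92, Chrng by −1.61 ± 0.64, Myog by −1.32 ± 0.64 and Pax7 by −1.32 ± 0.51. With the Acta1 covariate these 4 estimates were −1.005, −0.76, −0.26 and −0.45. Without KO BLM mouse 144, Myh3 stood at −2.52, Chrng at −2.51 and Myog at −2.10, and without WT BLM mouse 145 Pax7 stood at −0.68. Acta1 differed by −1.03 ± 0.49 (edgeR adjusted p = 0.316). By CPM the KO BLM mice were all below the WT BLM mice for Myh8, Actc1 and Chrna1, 3 of 10 genes against 12.9% of all genes below and 14.6% above, and the groups overlapped for the other 7. KO BLM mouse 144 was the highest of its group for all 10 genes and exceeded WT BLM mouse 146 in 7 of them. By ratio to Acta1, Actc1 alone was lower without overlap in KO BLM, 1 of 10 genes against 0.295% of all genes below and 30.3% above.

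Under PBS, log2 differences between KO and WT skin ranged from −1.41 to 1.39 with a median of 0.49. By edgeR 0 of the 10 genes were called (adjusted p from 0.254 to 0.953), where 0.0655% of all genes were called (0.0382% higher and 0.0273% lower). At an unadjusted p under 0.05 there were 0 of the 10, beside 3727 of 18311 genes. DESeq2 called 0 as well (2 at an unadjusted p under 0.05, beside 4787 genes). The 2 genotypes overlapped by CPM for 10 of 10 genes, where 8.62% of all genes were above and 10.3% below without overlap. Acta1 was above the WT range in all 3 KO PBS mice, with a log2 difference of 1.56 (edgeR adjusted p = 0.204). By ratio to Acta1, Myog alone was lower without overlap in KO PBS, where 41.5% of all genes were lower and 0.268% higher. Without mouse 136, edgeR called 2 of the 10 genes, where 36.7% of all genes were called. The median of 0.49 turned to −1.02 with the Acta1 covariate, −0.97 with the mature fast muscle covariate and −0.75 with the hair covariate. Acta1 and the mature fast muscle mean did not overlap between KO PBS and WT PBS, so the fits with them cannot tell genotype from muscle amount. With single mice left out the median ran from 0.087 to 1.46, the highest without WT PBS mouse 159. The KO response minus the WT response to bleomycin, which contains the known KO change, had estimates from −3.21 to −0.18 with a median of −1.81. That median turned to 0.55 with the Acta1 covariate, 0.25 with the mature fast muscle covariate and 0.35 with the hair covariate. Each of these covariates was without overlap between WT PBS and WT BLM, so these fits cannot tell it from treatment. Nothing is read from the change of sign. Without WT PBS mouse 159 the median was −2.91. None of the 10 differences of responses was called by edgeR (adjusted p from 0.0843 to 0.938), as was the case for 0% of all genes. At an unadjusted p under 0.05 there were 5 of the 10, beside 5687 of 18311 genes. DESeq2 called 3 of the 10 (18.5% of all genes) and edgeR called 4 of the 10 without mouse 136 (39.9% of all genes), counts to be read against those shares.

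Other muscle genes were taken from lists by function. List counts that rose or fell are edgeR calls in WT BLM against WT PBS. In that comparison 19.8% of all genes were called higher and 14.1% lower. In KO BLM against KO PBS, 0.306% of all genes were called. Of 25 mature fast muscle genes, 24 rose in WT BLM and the median log2 fold change was 2.42, below that of the set. Atp2a1, the calcium pump of fast fibers, rose by 2.37 ± 0.49 (edgeR adjusted p = 0.00928), Casq1, the calcium store protein, by 2.99 ± 0.48 (edgeR adjusted p = 0.00477) and Mylpf, the fast regulatory light chain, by 2.92 ± 0.53 (edgeR adjusted p = 0.00607). In KO skin 0 of the 25 were past the threshold by edgeR and the median difference was −0.39. Of 10 slow muscle genes, 9 rose in WT BLM with a median of 3.88. Tnnc1 and Tnnt1, the slow troponins C and T, rose by 6.82 ± 0.92 (edgeR adjusted p = 0.00329) and 5.004 ± 0.75 (edgeR adjusted p = 0.00415), and Myh7, the slow myosin, by 8.18 ± 1.49 (edgeR adjusted p = 0.00626). In KO skin the slow list had a median difference of 2.0004 with 1 gene past the threshold, Tnnc1, at 0.357 CPM in KO PBS and 36.7 CPM in KO BLM on average. The most abundant of the slow list moved less in WT skin, with 0.20 ± 0.21 for Atp2a2 (edgeR adjusted p = 0.454), 0.46 ± 0.14 for Tpm3 (edgeR adjusted p = 0.0292) and 2.40 ± 0.57 for Csrp3 (edgeR adjusted p = 0.0142). Atp2a2 and Tpm3 averaged 325 and 170 CPM in WT PBS, where Tnnc1 and Myh7 averaged 0.649 and 0.0548 CPM. Which cells of the skin made Atp2a2 and Tpm3 was not tested.

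Of 16 further developmental and regeneration genes, all 16 rose in WT BLM, against 19.8% of all genes, with a median log2 fold change of 3.75. H19, an imprinted RNA of fetal muscle, averaged 185 ± 52.6 CPM in WT PBS and 2422 ± 767 CPM in WT BLM (mean ± SD, n = 3; log2 fold change, 3.71 ± 0.51; edgeR adjusted p = 0.00355). Igf2, the fetal growth factor next to H19, rose by 4.69 ± 0.58 (edgeR adjusted p = 0.00304), Ncam1, an adhesion protein of regenerating and denervated fibers, by 3.12 ± 0.33 (edgeR adjusted p = 0.00227), and Nes, an intermediate filament of young fibers, by 3.04 ± 0.42 (edgeR adjusted p = 0.00363). In KO skin 1 of the 16 was past the threshold and the median difference was 2.03.

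Of 20 endplate and denervation genes, 19 were tested, and 13 rose and 1 fell in WT BLM, with a median of 2.30. Of all genes, 19.8% were called higher and 14.1% lower. Chrnb1, the β subunit of the muscle receptor, rose from 5.30 ± 1.49 to 56.7 ± 21.3 CPM (mean ± SD, n = 3; log2 fold change, 3.42 ± 0.41; edgeR adjusted p = 0.00302). Musk, the kinase that organizes the endplate, rose by 3.61 ± 0.59 (edgeR adjusted p = 0.00478), and Trim63, a ubiquitin ligase of wasting muscle, by 3.05 ± 0.49 (edgeR adjusted p = 0.00474). Fbxo32, the other such ligase, rose by 0.92 ± 0.24 (edgeR adjusted p = 0.0182), while Lrp4 and Runx1 had 0.78 ± 0.32 (edgeR adjusted p = 0.0792) and 0.60 ± 0.26 (edgeR adjusted p = 0.092). Lrp4 and Runx1 averaged 79.0 and 53.1 CPM in WT PBS, beside 0.541 CPM for Musk, and which cells made them was not tested. In KO skin 0 of the 19 were past the threshold by edgeR and the median difference was 0.09. The KO difference of Chrnb1 was 1.46, that of Musk 0.34 and that of Trim63 0.57, beside 4.73 for Chrng.

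Of 18 satellite cell genes and upstream regulators, 17 were tested, and 8 rose and 4 fell in WT BLM, with a median of −0.11. Of all genes, 19.8% were called higher and 14.1% lower. Sdc4, the most abundant gene of this list, was not called, at −0.32 ± 0.17 (edgeR adjusted p = 0.171). Itga7, the laminin receptor of muscle, rose by 2.39 ± 0.25 (edgeR adjusted p = 0.00215) and Megf10, a satellite cell receptor, by 2.26 ± 0.33 (edgeR adjusted p = 0.00405). Id3, an inhibitor of myogenic regulators that skin cells also make, fell by 1.43 ± 0.21 (edgeR adjusted p = 0.00405). Mef2a and Mef2d, partners of the regulators, rose by 1.08 ± 0.26 (edgeR adjusted p = 0.0141) and 0.72 ± 0.16 (edgeR adjusted p = 0.0102). In KO skin 0 of the 17 were past the threshold by edgeR and the median difference was 0.13. None of the genes in these 5 lists was called between KO and WT skin under bleomycin by edgeR, where 0.0928% of all genes were called. The list medians ranged from −1.27 to −0.52. DESeq2 called 3 of the developmental, 1 of the endplate and 4 of the satellite cell genes, where it called 3.34% of all genes. Without KO PBS mouse 136, edgeR called 9 satellite cell, 4 mature fast, 4 developmental and 2 endplate genes in that comparison, where 6.89% of all genes were called. With the Acta1 covariate, as with the set, 0 genes of these lists were called in WT skin, where that fit cannot tell treatment from muscle amount.

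Genes outside all lists were ranked by the likeness of their log2 CPM over the 12 mice to the mean of the set. The mice form a PBS and a bleomycin cluster, so the coefficient mostly reflects that gap and is given without a p value. The nearest was Msln, mesothelin, a surface glycoprotein (Pearson r = 0.982 over 12 mice), which ranged over 0.140 to 0.706 CPM in WT PBS, 7.86 to 17.9 CPM in WT BLM, 0.272 to 0.692 CPM in KO PBS and 2.42 to 7.27 CPM in KO BLM. Lrrn1 (r = 0.981), Phlda3 (r = 0.980), Vgll2, a cofactor expressed in skeletal muscle (r = 0.979), and Casq2, the calsequestrin of slow and cardiac muscle (r = 0.979), followed. Msln was also nearest to Chrng alone (r = 0.991), ahead of Uchl1 (r = 0.980), Exoc3l (r = 0.976), Casq2 (r = 0.975) and Rrad (r = 0.970). Myog alone was nearest to Phlda3 (r = 0.989), Spp1 (r = 0.984), Rrad (r = 0.982), Vgll2 (r = 0.982) and Arpp21 (r = 0.979).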

How the data were processed

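RNA was extracted from the skin of 12 mice (3 per group), made into stranded mRNA libraries and sequenced as read pairs. The authors deposited raw read counts per gene symbol for each mouse. The submitters' processing notes name the genome build GRCm38.p6 and MultiQC 1.7, and the aligner and counting tool are not given in the sources used here, nor is it stated whether counting used strand. The authors then normalised and tested with DESeq2. Genes were kept by filterByExpr in edgeR 4.0.16 (R 4.3.3; minimum count 10, minimum total 15), which left 18311 of 55453 genes. Counts were scaled by TMM and tested with the quasi-likelihood test on 4 group means in 1 model, with Benjamini-Hochberg adjustment over all genes and a threshold of 0.05. The biological coefficient of variation was 34.9%. Log2 CPM used a prior count of 2, and every mouse had its own number. DESeq2 1.42.0, other scalings and filters, covariates and left-out mice were alternatives. Gene positions came from GENCODE and promoter windows from RefSeq (both GRCm38). The members, lists, gene pairs and tests were chosen with earlier results of these data known. The text names all 10 members and, per list, the 3 genes with the highest mean and up to 3 with the smallest adjusted p in WT for muscle, endplate and satellite cell lists, and gives a selection of these. Adipocyte markers (0 of 9 called in WT by edgeR, median log2 fold change 0.32) and smooth muscle markers (1 of 7 higher and 1 lower in WT) complete the lists. Of all genes, 19.8% were called higher and 14.1% lower in WT. Scripts were tested on simulated counts. The labels do not say how cages or litters were shared, so p-values measure the spread between these mice.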

Additional observations from a re-analysis of the deposited data

How the results depend on the processing

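In WT skin, Chrng and Myf5 entered the main test only through the groups in which they were high. The WT result held for the other 8 genes, and the calls of Chrng and Myf5 stayed too, under DESeq2, other scalings (RLE and upper quartile), other filters, a fit of only the groups compared and each left-out mouse (2615 to 8565 genes called against 6222). It ended with a covariate, at 0 members called with Acta1 (0 genes) or the mature fast muscle list (0 genes) and at 0 with the hair list (14 genes). Each of these covariates was without overlap between the WT groups, so these fits cannot tell it from treatment there. The KO response, at 56 genes (0.306% of those tested) and 3 members, is given as a description. It became 1212 genes (6.14%) and 9 members by DESeq2, 34 (0.186%) and 1 with upper-quartile scaling and 176 (0.507%) and 6 without a filter. It was 0 and 0 with only the groups compared (2214 genes and 9 members at an unadjusted p under 0.05). As a covariate, Acta1 gave 298 (1.63%) and 7, the fast muscle list 139 (0.759%) and 6 and the hair list 1641 (8.96%) and 10. Leaving out single mice gave 0 to 2632 genes and 0 to 6 members, the 6 without 136 (14% of genes) or without 141 (6.19%) and 0 without any 1 of the other 10. Leaving out the 2 KO mice with the highest hair marker sums (136 and 141) gave 4164 genes (22.3%) and 7 members. The remaining KO BLM mice, 143 and 144, still had sums of 3799.7 and 6299 CPM, against 91.4 and 326 CPM in KO PBS mice 137 and 139. The KO difference of Acta1, −0.02, became 0.42 with the fast muscle list and 0.63 with the hair list as a covariate, and ran from −0.44 to 0.26 with single mice left out. KO against WT under PBS, at 12 genes, gave 755 by DESeq2, 2 with only the groups compared, 6 with Acta1 and 6 with the fast muscle list as a covariate. It gave 7648 genes (40.9%) and 2 members without both mice. Without single mice it gave 6 to 6870 genes and 0 to 2 members, the highest without 136 (36.7% of genes). KO against WT under bleomycin, at 17 genes, gave 614 by DESeq2, 6 with only the groups compared, 6 with Acta1 and 7 with the fast muscle list, 815 without both mice and 5 to 1292 without single mice, with 0 members called each time. Under the hair covariate, Myod1 and Myog turned to 0.097 and 0.10 in that comparison. The mean of the hair markers did not overlap between KO BLM and WT BLM, so that fit cannot tell genotype from hair growth. The difference of responses, at 0 genes, gave 3279 genes (18.5%) and 3 members by DESeq2, 20 genes without a filter and 7218 genes (38.6%) and 2 members without both mice. Without single mice it gave 0 to 7470 genes and 0 to 4 members, the highest without 136 (39.9% of genes). The cause of these changes was not tested. The ratio to Acta1 stayed without overlap for 10 of 10 genes in each genotype under every setting tried. Chrng and Myf5 rested on few reads in PBS-treated skin, which limits their fold changes. No paired analysis was possible because every mouse had its own number.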
